A study of Homo sapiens with 16 samples.

Results

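The cytoplasmic ribosomal protein genes were taken as all genes of the count table whose symbol consisted of RPL or RPS, a number and at most a final A or X, together with RPLP0, RPLP1, RPLP2 and RPSA. 77 of 23669 genes met this rule, 46 of the large and 31 of the small ribosomal subunit. The rule read symbols only and used no measured value. FAU and GNB2L1, which also encode a ribosomal protein or a ribosome component, are examples of genes that fell outside it.

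Poly(A) RNA was sequenced from HCT116, an established human colorectal carcinoma cell line, in 8 groups of 2 libraries that the labels describe as independent biological replicates. Cells labelled HIF1A-/- for HIF1A, the gene for the alpha subunit of the transcription factor HIF-1 (called HIF1A-null here), shCDK8 cells with a stable shRNA against the Mediator kinase CDK8, shTIP60 cells with a stable shRNA against the histone acetyltransferase TIP60 (gene KAT5) and shNT cells with a stable non-targeting shRNA were each kept for 24 h at 1% oxygen (hypoxia) or left at 21% oxygen (normoxia). The labels name no shRNA for the HIF1A-null cells, so that line may have differed from shNT in the shRNA as well. Each altered genotype was 1 line, so an effect of the targeted gene and an effect of the line or of another target of the shRNA cannot be told apart. The comparisons asked how the ribosomal protein mRNAs differed between hypoxia and normoxia in each line, and between each altered line and shNT.

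A cytoplasmic ribosome joins a small subunit, which reads the mRNA, to a large subunit, which forms peptide bonds, and each ribosomal protein is normally present once per ribosome except for the acidic stalk proteins. Most ribosomal protein mRNAs are abundant and begin with a C followed by a run of pyrimidines, the 5′ terminal oligopyrimidine or TOP element, through which mTOR signalling and LARP1 control their translation and storage. Hypoxia is known to lower mTOR signalling, partly through DDIT4, and several ribosomal proteins carry hydroxyl groups set by oxygen-dependent oxygenases.

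Total counts ran from 26620086 to 39401494 per library, and 15520 genes, 76 of the 77 ribosomal protein genes among them, passed the filter on low counts. Levels are given in CPM, counts relative to the library total scaled with trimmed mean of M-values (TMM) factors, and changes as log2 fold changes ± SE from edgeR's quasi-likelihood test with Benjamini-Hochberg adjustment over all 15520 genes, a gene being called at an adjusted p below 0.05. CDK8 averaged 5.64 ± 0.274 CPM in shCDK8 and 28.1 ± 0.280 CPM in shNT in hypoxia, and KAT5 21.5 ± 0.703 CPM in shTIP60 and 90.5 ± 4.28 CPM in shNT (SD, n = 2 each). HIF1A averaged 13.6 ± 0.763 CPM in HIF1A-null and 107.5 ± 0.805 CPM in shNT in normoxia, but 48.9 ± 12.4 and 65.9 ± 6.55 CPM in hypoxia (SD, n = 2 each), and which part of the gene was altered is not given in the sources used here, so the hypoxia counts do not check that label. The epithelial markers KRT8 and EPCAM were at 1373 CPM or more and 129 CPM or more in every library, and the blood marker PTPRC at 0.0540 CPM or less. Of the fibroblast markers, COL1A2 was at 0.0924 CPM or less, while COL1A1 lay between 21.5 and 81.9 CPM. The epithelial list also held KRT18, CDH1 and the intestinal gene VIL1, and the fibroblast list PDGFRB. VIL1 and PDGFRB passed the filter but were measured imprecisely. Their log2 fold changes were -0.83 ± 0.90 and -0.61 ± 0.50 in HIF1A-null against shNT in normoxia. The levels of VIL1, PDGFRB, CDH1 and the endothelial marker PECAM1 are not given here, so the marker lists were not read as a whole.

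The start sites of 7 genes whose levels differed in the comparisons below are shown because they carry the element by which this gene family is known. RefSeq start sites (build GRCh38.p14) were at hand for 62 of the 77 genes, and in 46 of them (74.2%) the annotated start was a C followed by at least 4 further pyrimidines, against 1404 of 27305 genes of all kinds (5.14%). Each stretch holds 25 bases before the start and 15 from it, read 5′ to 3′ on the gene's strand, with the unbroken run of C or T from the start in capitals. The coordinates are chr19:55385907-55385946 (RPL28, plus strand), chr1:153990737-153990776 (RPS27, plus), chr15:69452793-69452832 (RPLP1, plus), chrX:154398352-154398391 (RPL10, plus), chr1:6199581-6199620 (RPL22, minus), chr19:39435935-39435974 (RPS16, minus) and chr19:54200833-54200872 (RPS9, plus).
RPL28: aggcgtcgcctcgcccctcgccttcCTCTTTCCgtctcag
RPS27: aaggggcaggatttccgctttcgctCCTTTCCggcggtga
RPLP1: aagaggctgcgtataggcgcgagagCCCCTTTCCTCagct
RPL10: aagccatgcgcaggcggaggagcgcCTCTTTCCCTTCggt
RPL22: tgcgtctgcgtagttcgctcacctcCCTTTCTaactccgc
RPS16: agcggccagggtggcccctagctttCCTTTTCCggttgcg
RPS9: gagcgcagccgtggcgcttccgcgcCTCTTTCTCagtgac
The runs were 7 bases long in RPS27 and RPL22 and 12 in RPL10. The letters CTTTCC, searched on both strands from 15 bases before to 20 bases after the start, occurred in 20 of the 62 genes (32.3%) and in 3.98% of all genes with an entry. All 20 genes held them on the gene's own strand. The window includes the pyrimidine run, which holds these letters in RPL28, RPS27, RPLP1 and RPL10, so this count is not separate from the one above. CTTTTCC and CTCTTTCC, searched in the same way, occurred in 10 genes each (16.1%), against 1.07% and 0.509% of all genes with an entry.

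Per kilobase of coding sequence, 53 of the 77 genes averaged 1000 CPM or more over the 16 libraries, 19 lay from 100 to below 1000, and 5 below 100. The medians were 1582 CPM per kb for the large and 1756 CPM per kb for the small subunit. RPL8, which lies near the peptidyl transferase centre, was highest at 4718 CPM per kb with a range over libraries of 3611 to 7164, before RPL37A at 4258 (3294 to 5315). These ranges overlapped, so the order is not resolved beyond the spread between libraries.

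At the low end, RPL21 had 15 to 63 counts per library, a mean of 2.04 CPM per kb, and RPL36A averaged 22.6 CPM per kb. RPS10 and RPS26 were also below 100 CPM per kb. RPL21 has 133 annotated pseudogenes, and the median was 36 for the 5 genes below 100 CPM per kb against 13 for the others. Across the 76 genes with counts, the number of annotated pseudogenes and the log2 level per kb had a Pearson r of -0.62 and a Spearman rho of -0.50, a description across genes that are not independent replicates and share the same libraries. How reads that fit several copies were counted is not given in the sources used here, so the levels of such genes, and of RPL17, RPL36A and RPS10, which overlap annotated readthrough genes, are uncertain.

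**Figure D1:**
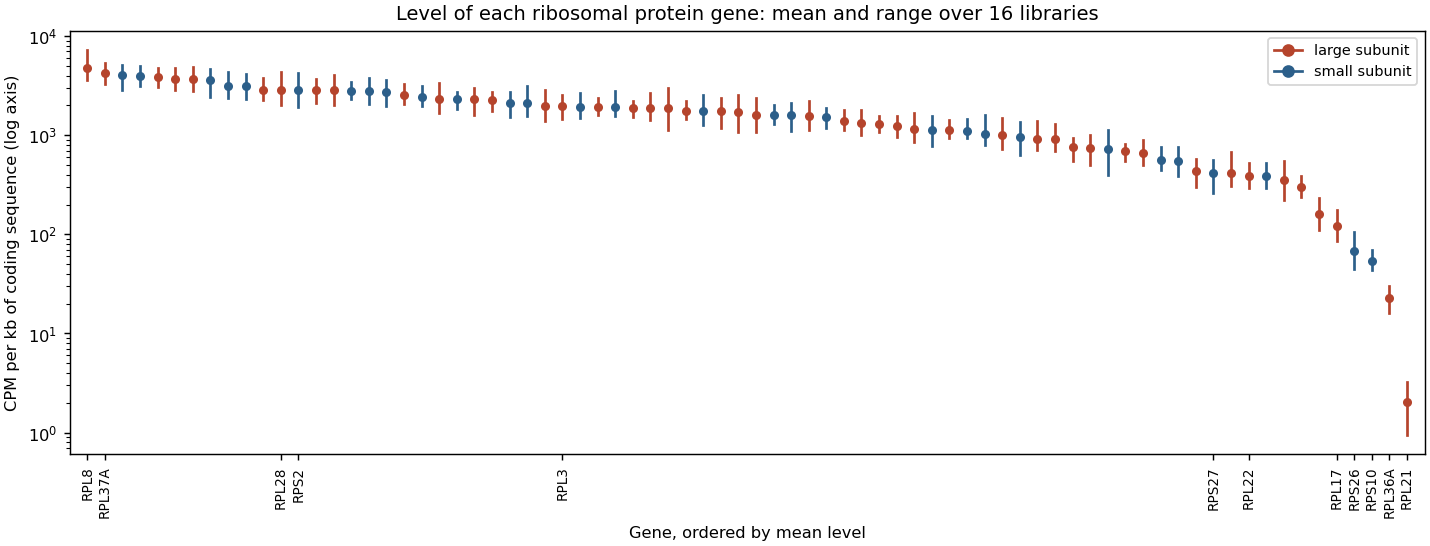
Mean (point) and range over 16 libraries (line) of CPM per kb of coding sequence, on a log axis, for the 76 ribosomal protein genes with counts, ordered by mean, with the names of some genes. 53 genes lie at 1000 CPM per kb or more and RPL21, at 2.04 CPM per kb, is the lowest drawn.

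Across the 16 libraries a gene's highest CPM was 1.84 times its lowest in the median, with a range over genes of 1.44 to 3.43. The ratio of large to small subunit counts lay between 1.31 and 1.43 in every library, so both subunits moved together while their sum changed. In share of all counts, the ribosomal protein genes took 7.14% ± 0.117 in HIF1A-null hypoxia and 7.31% ± 0.610 in HIF1A-null normoxia, and 6.05% ± 0.562 in shCDK8 hypoxia and 6.75% ± 1.25 in shCDK8 normoxia (SD, n = 2 each). They took 6.60% ± 0.517 in shTIP60 hypoxia and 5.97% ± 0.00424 in shTIP60 normoxia, and 7.17% ± 0.680 in shNT hypoxia and 6.45% ± 0.317 in shNT normoxia (SD, n = 2 each). In these shares both hypoxia libraries lay above both normoxia libraries in shTIP60 and in shNT, while the groups overlapped in HIF1A-null and shCDK8, where the hypoxia means were the lower ones.

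Scaled with TMM factors, which lay between 0.862 and 0.965 for hypoxia libraries and between 1.01 and 1.12 for normoxia libraries, the sums were 81915 and 83566 CPM in HIF1A-null hypoxia against 68402 and 71638 CPM in HIF1A-null normoxia. In shCDK8 the sums were 58567 and 68562.5 CPM in hypoxia against 55944 and 70486 CPM in normoxia. They were 65497 and 72271 CPM in shTIP60 hypoxia against 54054 and 53254 CPM in shTIP60 normoxia, and 71265 and 80269 CPM in shNT hypoxia against 58065 and 60605.5 CPM in shNT normoxia. On this scale hypoxia lay above normoxia without overlap in HIF1A-null, shTIP60 and shNT, while the shCDK8 groups overlapped. The sign of the summed change in HIF1A-null therefore depended on the scaling. So did that of the shCDK8 means, at 63560 CPM in hypoxia and 63210 CPM in normoxia with TMM factors, where the groups overlapped on both scales. In RNA from whole cultures, a change in every cell and a change in the share of cells with high levels cannot be told apart.

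**Figure D2:**
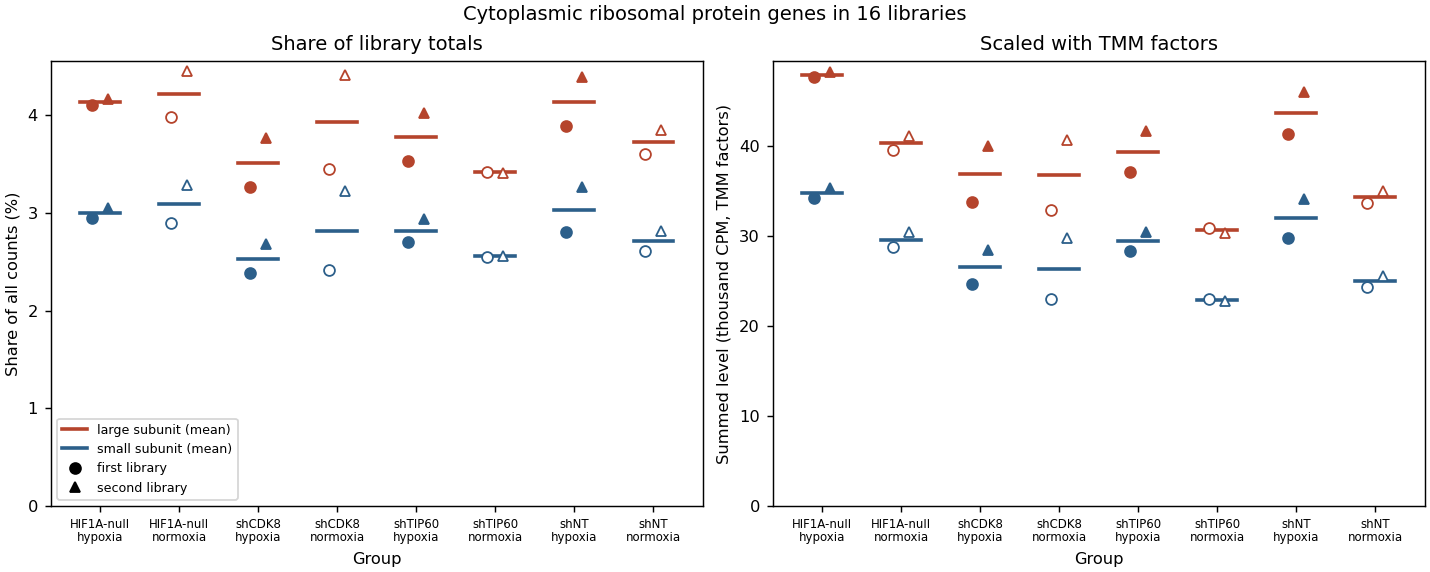
Summed level of the large (red) and small (blue) subunit genes in each library, as a share of all counts in percent (left) and in units of 1000 CPM with TMM factors (right); bars are group means, circles the first and triangles the second library, filled in hypoxia and open in normoxia. Both subunits follow the same course over the 8 groups, and the HIF1A-null hypoxia libraries, at 81915 and 83566 CPM for both subunits together, are the highest on the right and not on the left.

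In 3 lines some genes of the family were higher in hypoxia than in normoxia, and in shCDK8 none was called. RPS2, RPL3, RPL13A, RPL17 and RPL28 rose in HIF1A-null, shTIP60 and shNT alike, and RPL8 rose in HIF1A-null and shTIP60. In HIF1A-null cells 6 of 76 genes rose and none fell, where 18.9% of all genes rose and 19.1% fell. In shCDK8 cells 0 of 76 were called (13.8% of all genes rose and 11% fell). At an unadjusted p below 0.05, 1 gene was higher in shCDK8 hypoxia, and DESeq2 called 1. In shTIP60 cells 17 rose and none fell (19.4% and 19.8% of all genes), and in shNT cells 28 rose and none fell (20.7% and 20% of all genes). In this fit without a block, the share of genes that rose was thus below that of all genes in HIF1A-null, near it in shTIP60 and above it in shNT. The share that fell was below that of all genes in every line. With the library number as a block, more ribosomal protein genes were called in HIF1A-null, shCDK8 and shTIP60 (counts at the end, without shares of all genes). The counts changed with single libraries: 3 genes were called in HIF1A-null without its second normoxia library, 2 in shTIP60 without its first normoxia, 3 without its second normoxia, 9 without its first hypoxia and 4 without its second hypoxia library. In shNT 11 were called without the first normoxia library, and 8 each without the second normoxia and the second hypoxia library. In shCDK8 4 were called without the first normoxia library, 1 higher and 3 lower.

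The median log2 fold changes of the 76 genes were 0.18 in HIF1A-null, -0.10 in shCDK8, 0.31 in shTIP60 and 0.33 in shNT, and those of all genes tested were within 0.02 of 0. Values above 0 were found for 72 genes in HIF1A-null, 26 in shCDK8, 73 in shTIP60 and 72 in shNT. Both hypoxia libraries lay above both normoxia libraries for 39 genes in HIF1A-null (30.8% of all genes did), 8 in shCDK8 (32%), 63 in shTIP60 (38.1%) and 53 in shNT (34.9%). They lay below for 1 gene in HIF1A-null (31.7%), 6 in shCDK8 (30.6%), 1 in shTIP60 (40.2%) and 0 in shNT (34.9%). By subunit, 5 of 46 large and 1 of 30 small subunit genes rose in HIF1A-null, 10 and 7 in shTIP60, and 16 and 12 in shNT.

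These directions depended on the scaling in part. With library totals alone, the median of all genes moved to -0.28 in HIF1A-null, -0.16 in shCDK8, -0.23 in shTIP60 and -0.20 in shNT, and the medians of the ribosomal protein genes to -0.09, -0.27, 0.09 and 0.13 in the same order of lines. Measured from the median of all genes, they stood at 0.18, -0.11, 0.33 and 0.33 with library totals and at 0.18, -0.10, 0.33 and 0.33 with TMM factors. A change of scaling shifts all genes of a comparison nearly alike, so these values had to match and test nothing. With library totals the genes called were 0 in HIF1A-null, 4 lower in shCDK8, 1 higher in shTIP60 and 4 higher in shNT, and calls over all genes leaned to lower values, with 1485 higher and 5141 lower in HIF1A-null, 1447 and 3085 in shCDK8, 1899 and 4859 in shTIP60, and 2116 and 4605 in shNT. With TMM factors those calls were 2935 and 2958, 2135 and 1713, 3007 and 3076, and 3208 and 3103 in the same order.

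**Figure D3:**
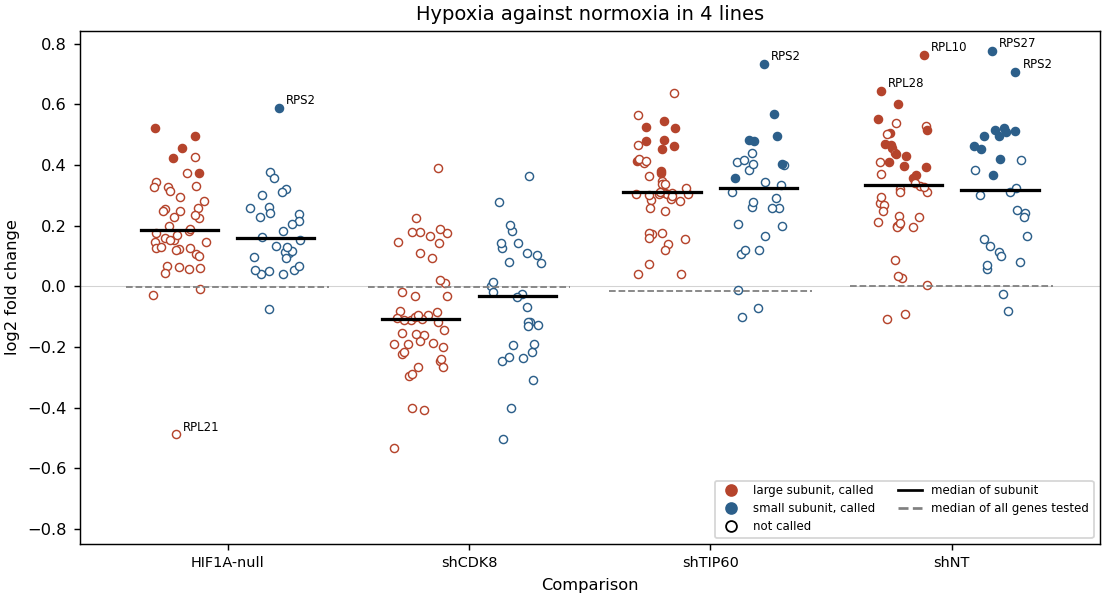
log2 fold change of each of 76 ribosomal protein genes, hypoxia against normoxia, in 4 lines; filled points were called by edgeR at an adjusted p below 0.05, black bars are medians of each subunit and dashed lines medians of all genes tested. Filled points number 6 in HIF1A-null, 0 in shCDK8, 17 in shTIP60 and 28 in shNT, all above 0.

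RPS2, a protein of the small subunit near the mRNA entry channel and a substrate of the methyltransferase PRMT3, rose in 3 lines (gene at chr16:2012059-2014842, minus strand, GRCh37). It had 3762 and 3601 CPM in HIF1A-null hypoxia against 2519 and 2378 CPM in HIF1A-null normoxia, and 2459 and 2686 CPM in shCDK8 hypoxia against 2003 and 2712 CPM in shCDK8 normoxia. In shTIP60 it had 2905 and 2779 CPM in hypoxia against 1718 and 1703 CPM in normoxia, and in shNT 2767 and 2973 CPM in hypoxia against 1819 and 1697 CPM in normoxia. The groups overlapped in shCDK8 alone. The log2 fold changes were 0.59 ± 0.14 in HIF1A-null (adjusted p = 0.00403), 0.13 ± 0.14 in shCDK8 (adjusted p = 0.557), 0.73 ± 0.14 in shTIP60 (adjusted p = 7.80e-04) and 0.71 ± 0.14 in shNT (adjusted p = 9.42e-04). The calls of RPS2 in HIF1A-null, shTIP60 and shNT held whichever of the 4 libraries compared was left out.

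RPL28, a large subunit protein found in animals and absent from budding yeast, also rose in the same 3 lines. It had 1790 and 1462 CPM in HIF1A-null hypoxia against 1272 and 1102 CPM in HIF1A-null normoxia, and 1179 and 1236 CPM in shCDK8 hypoxia against 1008 and 837 CPM in shCDK8 normoxia. It had 1337 and 1395 CPM in shTIP60 hypoxia against 1011 and 948 CPM in shTIP60 normoxia, and 1293 and 1433 CPM in shNT hypoxia against 888 and 855 CPM in shNT normoxia. No pair of groups overlapped. The log2 fold changes were 0.45 ± 0.14 in HIF1A-null (adjusted p = 0.0186), 0.39 ± 0.14 in shCDK8 (adjusted p = 0.0551), 0.48 ± 0.14 in shTIP60 (adjusted p = 0.0132) and 0.64 ± 0.14 in shNT (adjusted p = 0.00185). In shCDK8 this was the gene at an unadjusted p below 0.05. The shNT call of RPL28 held whichever library was left out, while the shTIP60 call was lost whichever one was left out, at adjusted p values of 0.0516 to 0.0995. The HIF1A-null call was lost without the second normoxia (adjusted p = 0.127) or the first hypoxia library (adjusted p = 0.170).

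RPS27, a zinc-finger protein of the small subunit, had 138 and 128 CPM in shNT hypoxia against 89.3 and 66.2 CPM in shNT normoxia, a log2 fold change of 0.78 ± 0.15 (adjusted p = 9.03e-04) that was called whichever library was left out. It had 125 and 114 CPM in shTIP60 hypoxia against 85.8 and 83.6 CPM in shTIP60 normoxia, and rose by 0.50 ± 0.15 on the log2 scale (adjusted p = 0.0180). In HIF1A-null it had 139 and 142 CPM in hypoxia against 139.5 and 108 CPM in normoxia, and the log2 fold change of 0.18 ± 0.15 was not called (adjusted p = 0.368). In HIF1A-null the hypoxia and normoxia libraries overlapped, while in shTIP60 and shNT they did not.

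RPL10, which joins the large subunit late in assembly beside the peptidyl transferase centre, rose by 0.76 ± 0.18 in shNT (adjusted p = 0.00306), with 683 and 952 CPM in hypoxia against 501 and 463 CPM in normoxia. The hypoxia values spread widely, and the call was lost without the second hypoxia library (0.50, adjusted p = 0.0624). RPL10 also rose in shTIP60 by 0.55 ± 0.18 (adjusted p = 0.0239). RPL3, a core protein of the peptidyl transferase centre, rose by 0.37 ± 0.13 in HIF1A-null, 0.52 ± 0.13 in shTIP60 and 0.36 ± 0.13 in shNT. In shTIP60 it had 2491 and 2578 CPM in hypoxia against 1783 and 1750 CPM in normoxia, and that call held whichever library was left out. The RPL3 call in HIF1A-null was lost without the first normoxia (adjusted p = 0.124), the second normoxia (adjusted p = 0.0801) or the first hypoxia library (adjusted p = 0.147). RPS28, of the mRNA exit region, rose by 0.57 ± 0.17 in shTIP60 (adjusted p = 0.0154) and 0.51 ± 0.17 in shNT (adjusted p = 0.0244). The shTIP60 call of RPS28 was lost without the first normoxia (adjusted p = 0.120) or the second hypoxia library (0.33, adjusted p = 0.235).

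The acidic stalk proteins RPLP0, RPLP1 and RPLP2 recruit elongation factors to the ribosome. RPLP1 had 1520 and 1525 CPM in shTIP60 hypoxia against 1108 and 1102 CPM in shTIP60 normoxia, and 1472 and 1633 CPM in shNT hypoxia against 1064 and 1107 CPM in shNT normoxia. It rose by 0.46 ± 0.13 in shTIP60 (adjusted p = 0.00873) and 0.52 ± 0.13 in shNT (adjusted p = 0.00411), and the shNT call held whichever library was left out, while the shTIP60 call was lost whichever one was left out, at adjusted p values of 0.0508 to 0.0613. RPLP0 rose by 0.53 ± 0.17 in shTIP60 and 0.43 ± 0.17 in shNT, where the call came to an adjusted p of 0.0467, and RPLP2 rose by 0.40 ± 0.13 in shNT (adjusted p = 0.0196). Both RPLP0 calls were lost without the first normoxia, the second normoxia or the second hypoxia library of the line, with log2 fold changes down to 0.34 in shTIP60 and 0.27 in shNT, and the RPLP2 call was lost without the first normoxia (0.31) or the second hypoxia library (0.30). In HIF1A-null and shCDK8 the 3 genes had log2 fold changes between 0.15 and 0.25, none of them called.

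Other role groups were called less evenly. RPL5 and RPL11, which bind MDM2 together with 5S rRNA when ribosome assembly is disturbed, were called in no hypoxia comparison, with log2 fold changes from -0.22 ± 0.20 (RPL5, shCDK8) to 0.35 ± 0.16 (RPL11, shTIP60). RPS6, the S6 kinase substrate, and RPS27A, made as a fusion with ubiquitin, were not called either, at -0.19 ± 0.18 to 0.29 ± 0.18 and -0.19 ± 0.21 to 0.28 ± 0.21. Of the proteins lining the peptide exit tunnel, RPL17 rose by 0.52 ± 0.15 in HIF1A-null (adjusted p = 0.0103), 0.41 ± 0.15 in shTIP60 (adjusted p = 0.0346) and 0.43 ± 0.15 in shNT (adjusted p = 0.0274). The RPL17 calls were lost whichever library was left out in shTIP60 (adjusted p up to 0.179), without the second normoxia, the first hypoxia or the second hypoxia library in shNT (up to 0.213), and without the second normoxia (0.0848) or second hypoxia library (0.0863) in HIF1A-null. RPL4 and RPL39 had values up to 0.44 ± 0.19 and 0.50 ± 0.24, both in shNT, and were not called.

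Of the 3 substrates of oxygen-dependent oxygenases, RPL8 had 5545 and 5134 CPM in HIF1A-null hypoxia against 3932 and 3639 CPM in HIF1A-null normoxia. It rose there by 0.50 ± 0.13 (adjusted p = 0.00785) and in shTIP60 by 0.37 ± 0.13 (adjusted p = 0.0346), and had 0.31 ± 0.13 in shNT (adjusted p = 0.0729). The RPL8 call was lost without the second normoxia library in HIF1A-null (adjusted p = 0.0543) and whichever library was left out in shTIP60 (up to 0.170). RPL27A and RPS23 were not called, with values from -0.11 ± 0.17 to 0.29 ± 0.17 and from -0.25 ± 0.19 to 0.12 ± 0.19. Their 3 enzymes fell in all 4 lines: C14orf169, which encodes the RPL8 hydroxylase NO66, fell by 4.57 ± 0.28 in HIF1A-null, 1.53 ± 0.19 in shCDK8, 2.50 ± 0.21 in shTIP60 and 2.47 ± 0.21 in shNT on the log2 scale. MINA, which acts on RPL27A, had log2 fold changes of -0.44 to -1.16 and OGFOD1, which acts on RPS23, of -0.57 to -1.17.

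**Figure D4:**
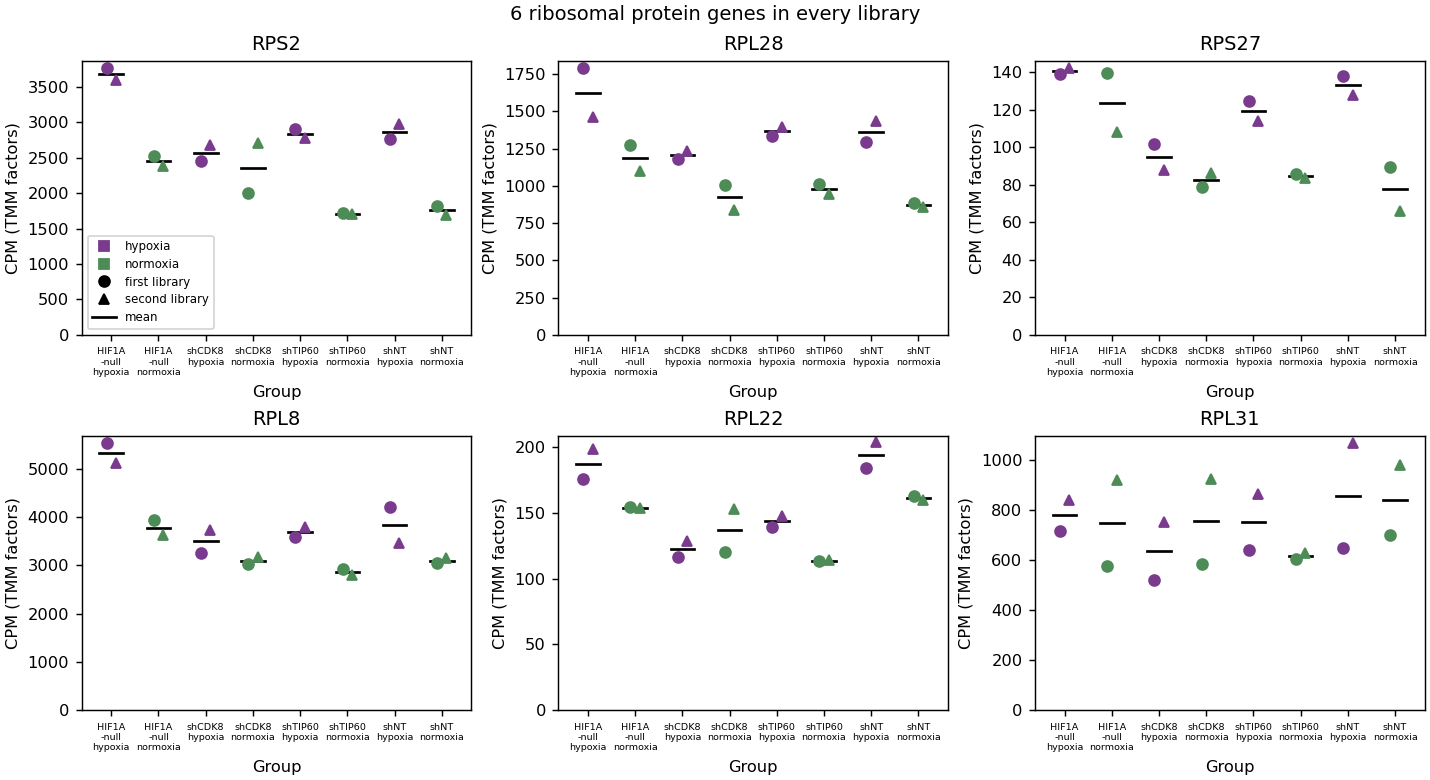
CPM (TMM factors) of RPS2, RPL28, RPS27, RPL8, RPL22 and RPL31 in every library, with hypoxia in purple left of normoxia in green within each line; circles are first and triangles second libraries and bars the group means. RPS2 is highest in HIF1A-null hypoxia (3762 and 3601 CPM), RPL22 is lowest in shTIP60 normoxia and shCDK8 hypoxia, and RPL31 lies higher in the second library of all 8 groups.

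Set against shNT at the same oxygen level, a few ribosomal protein genes were higher in HIF1A-null cells, and a few were lower in shCDK8 and in shTIP60 cells. All 6 of these comparisons share the shNT libraries of their oxygen level. In hypoxia, 5 of 76 genes were higher and none lower in HIF1A-null (20.3% and 20.8% of all genes), 9 were lower and none higher in shCDK8 (13.4% and 14.4%), and 3 were lower and none higher in shTIP60 (10.5% and 11.3%). Without the second shNT hypoxia library or either shTIP60 hypoxia library 0 were called in shTIP60, and without the first shNT hypoxia library 10 were. In normoxia, 4 were higher and none lower in HIF1A-null (5.86% of all genes in each direction), and 1 was lower and none higher in shTIP60 (8.13% and 10.3%). In shCDK8 normoxia edgeR called 0 (5.8% of all genes were higher and 7.27% lower). There 5 were higher at an unadjusted p below 0.05, and DESeq2 called 2, and 4 were called by edgeR without the first shCDK8 normoxia library. Each share was below or near that of all genes. The share of all genes at the unadjusted threshold is not given here. With the library number as a block, more ribosomal protein genes were called in all 6 comparisons (counts at the end, without shares of all genes). Cell type markers differed between the lines as well. Of 7 tested, 2 were higher and 3 lower in HIF1A-null than in shNT in hypoxia, 2 and 4 in shCDK8, and 2 and 1 in shTIP60, and in normoxia 2 and 1, 2 and 4, and 2 and 2 in the same order. The keratin gene KRT18 averaged 1632 ± 450 CPM in HIF1A-null, 1946 ± 95.5 CPM in shCDK8 and 1719 ± 122 CPM in shTIP60, against 1029 ± 133 CPM in shNT in hypoxia (SD, n = 2 each). VIM, an intermediate filament gene of mesenchymal cells, averaged 0.592 ± 0.0567 CPM in HIF1A-null and 10.7 ± 1.37 CPM in shNT in hypoxia (SD, n = 2 each). The part of these differences between lines in the ribosomal protein values was not tested.

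The medians of the 76 genes in hypoxia were 0.07 in HIF1A-null, -0.28 in shCDK8 and -0.20 in shTIP60, and in normoxia 0.24, 0.12 and -0.20 in the same order, against values within 0.02 of 0 for all genes. Both shCDK8 hypoxia libraries lay below both shNT hypoxia libraries for 44 genes (30.9% of all genes did) and above them for none (34.4%). Both shTIP60 libraries lay below both shNT libraries for 33 genes in hypoxia (31.4%) and 44 in normoxia (33.7%), and both HIF1A-null libraries lay above for 29 in hypoxia (32.7%) and 47 in normoxia (24%). With library totals alone the median of HIF1A-null in hypoxia became -0.06, where that of all genes was -0.12 and the calls over all genes were 2317 higher and 4008 lower, against 3157 and 3221 with TMM factors.

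**Figure D5:**
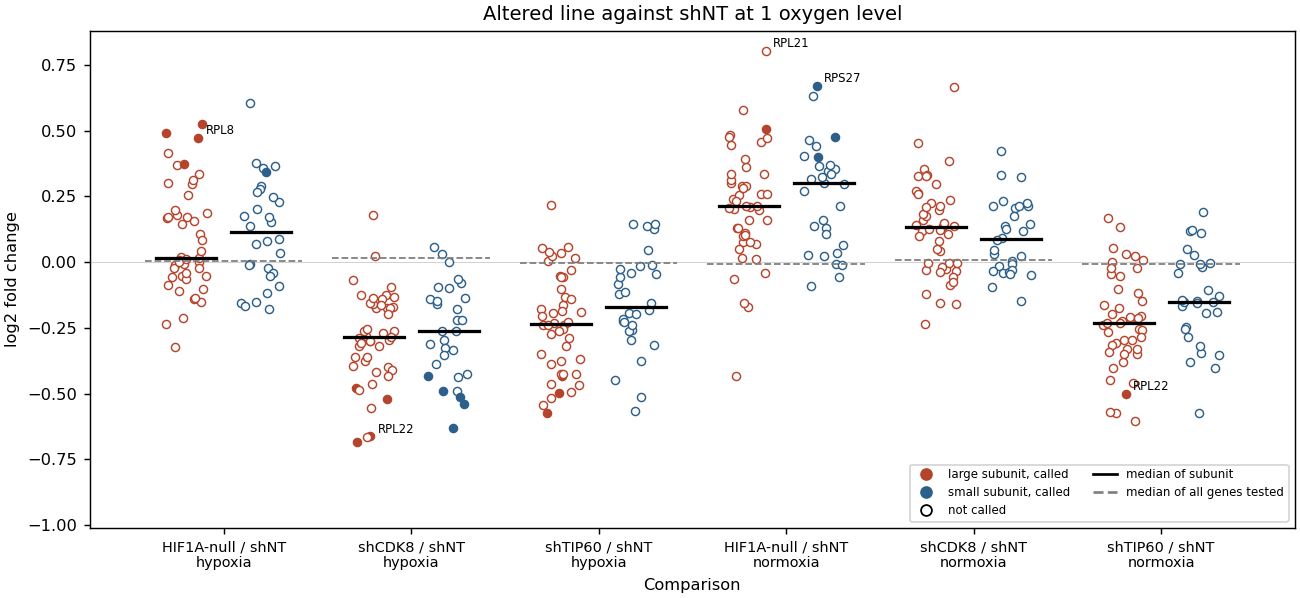
log2 fold change of each of 76 ribosomal protein genes in an altered line against shNT, in hypoxia (left 3) and normoxia (right 3); filled points were called by edgeR at an adjusted p below 0.05, black bars are medians of each subunit and dashed lines medians of all genes tested. Called genes number 5, 9 and 3 in hypoxia and 4, 0 and 1 in normoxia for HIF1A-null, shCDK8 and shTIP60.

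RPL22, an RNA-binding protein of the large subunit (gene at chr1:6245080-6269449, minus strand, GRCh37), was lower than in shNT in shCDK8 in hypoxia and in shTIP60 at both oxygen levels. It had 117 and 128 CPM in shCDK8 hypoxia and 140 and 148 CPM in shTIP60 hypoxia, against 184 and 204 CPM in shNT hypoxia. In normoxia it had 121 and 153 CPM in shCDK8 and 114 and 114 CPM in shTIP60, against 162.5 and 159.5 CPM in shNT. The groups did not overlap in any of these 4 comparisons. The log2 fold changes were -0.66 ± 0.13 in shCDK8 (adjusted p = 0.00160) and -0.43 ± 0.13 in shTIP60 (adjusted p = 0.0268) in hypoxia, and -0.24 ± 0.13 in shCDK8 (adjusted p = 0.279) and -0.50 ± 0.13 in shTIP60 (adjusted p = 0.0136) in normoxia. The shCDK8 call in hypoxia held whichever library was left out. In shTIP60 the hypoxia call was lost without the second shNT hypoxia (adjusted p = 0.178), the first shTIP60 hypoxia (0.176) or the second shTIP60 hypoxia library (0.0936), and the normoxia call whichever library was left out (0.0615 to 0.0962). In HIF1A-null cells RPL22 had 176 and 198 CPM in hypoxia and 154 and 154 CPM in normoxia, and differed from shNT by -0.05 ± 0.13 and -0.06 ± 0.13.

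The other genes lower in shCDK8 than in shNT in hypoxia included RPL37, RPS24, RPL32, RPS29, RPS27, RPL30 and RPS16, with log2 fold changes of -0.68 to -0.43. RPL37 had 391 and 478 CPM in shCDK8 and 463 and 475 CPM in shTIP60, against 656 and 740 CPM in shNT in hypoxia. The log2 fold changes were -0.68 ± 0.19 in shCDK8 (adjusted p = 0.0152) and -0.57 ± 0.19 in shTIP60 (adjusted p = 0.0433), without overlap. RPL32 had log2 fold changes of -0.52 ± 0.16 in shCDK8 (adjusted p = 0.0233) and -0.50 ± 0.16 in shTIP60 (adjusted p = 0.0348). RPS16, whose tail reaches the decoding centre, had 1411 and 1616 CPM in shCDK8 against 1899 and 2182 CPM in shNT in hypoxia, and RPL30 879 and 927 CPM against 1223 and 1294 CPM. Without the second shNT hypoxia library or the first shCDK8 hypoxia library, 1 gene was called in shCDK8, and without the first shNT hypoxia library 15 genes were called. In shTIP60 the RPL37 call was lost whichever library was left out, and that of RPL32 was kept only without the first shNT hypoxia library.

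In HIF1A-null cells RPS9, a small subunit protein near the mRNA entry channel, was higher than in shNT at both oxygen levels. It had 1545 and 1351 CPM in HIF1A-null hypoxia against 1181 and 1103 CPM in shNT hypoxia, and 1198 and 1138 CPM in HIF1A-null normoxia against 871 and 900 CPM in shNT normoxia. The log2 fold changes were 0.34 ± 0.12 (adjusted p = 0.0373) and 0.40 ± 0.12 (adjusted p = 0.0480), and the call was lost in normoxia whichever library was left out and, in hypoxia, without the first shNT (adjusted p = 0.0657), the second shNT (0.163) or the first HIF1A-null library (0.224). RPL8 (0.47 ± 0.13, adjusted p = 0.00921), RPL35 (0.53 ± 0.16, adjusted p = 0.0153), RPL36 (0.49 ± 0.16, adjusted p = 0.0223) and RPL7A (0.37 ± 0.14, adjusted p = 0.0371) were higher in hypoxia. These 4 are large subunit genes. The RPL7A call was lost whichever library was left out (adjusted p up to 0.152), and those of RPL8, RPL35 and RPL36 without the second shNT or the first HIF1A-null hypoxia library. Without the first HIF1A-null hypoxia library 0 of the 76 genes were called in hypoxia, and without the second shNT hypoxia library 1 was.

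RPS27 was higher in HIF1A-null normoxia, with 139.5 and 108 CPM against 89.3 and 66.2 CPM in shNT normoxia (0.67 ± 0.15, adjusted p = 0.00801). RPL29 (0.51 ± 0.15, adjusted p = 0.0325) and RPS2 (0.48 ± 0.14, adjusted p = 0.0370) were higher in the same comparison. Both of these calls were lost whichever library was left out, at adjusted p values of up to 0.184 for RPL29 and 0.223 for RPS2. The RPS27 call was lost without the second shNT normoxia (adjusted p = 0.147) or the first HIF1A-null normoxia library (adjusted p = 0.0715). No ribosomal protein gene was called there without the second shNT normoxia library or the first HIF1A-null normoxia library, and 2 were without the first shNT normoxia library.

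The hypoxia responses of the altered lines were set against that of shNT as differences of log2 fold changes. None of the 76 genes was called in any of the 3 differences by the edgeR fit with groups only and no block. Of all genes, 16.4% were called for HIF1A-null, 0.0387% for shCDK8 and 0.0322% for shTIP60. At an unadjusted p below 0.05, 3 genes had a smaller response in HIF1A-null than in shNT and DESeq2 called 1, and edgeR called 1 without the first shNT normoxia or the second HIF1A-null normoxia library. For shCDK8, 18 genes had a smaller response at an unadjusted p below 0.05 and DESeq2 called 0. For shTIP60 both counts were 0. The shares of all genes past the unadjusted threshold are not given here, so these counts are not set against a background. With the library number as a block, edgeR called genes for HIF1A-null and shCDK8 (counts at the end). The medians were -0.13 for HIF1A-null, -0.39 for shCDK8 and -0.02 for shTIP60, against -0.02, 0.02 and -0.01 for all genes tested. In shCDK8 75 of 76 genes had a lower response than in shNT, RPL36 being the exception.

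Single genes show the width of these differences. RPS2 differed by -0.12 ± 0.20 in HIF1A-null, -0.58 ± 0.20 in shCDK8 (adjusted p = 0.288) and 0.03 ± 0.20 in shTIP60. RPS27 differed by -0.59 ± 0.22 in HIF1A-null (adjusted p = 0.0752) and -0.57 ± 0.22 in shCDK8 (adjusted p = 0.342). That a gene rose in shNT and was not called in shCDK8 was therefore not shown to be a difference between the lines. The normoxia libraries of shCDK8 lay apart, at 5.86% and 7.64% of all counts for the family, and without the first of them 4 genes were called between hypoxia and normoxia in shCDK8.

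Levels also differed between the first and the second library of each group, which are told apart by the numbers in the column names. RPL31 was higher in the second library in 8 of 8 groups, by a median of 0.51 on the log2 scale, as were RPL12 (0.44), RPS13 (0.43) and RPL39 (0.38), while RPL35 and RPS19 had medians of -0.23. RPL31 had 717 and 842 CPM in HIF1A-null hypoxia against 578 and 920 CPM in HIF1A-null normoxia, and 648 and 1070 CPM in shNT hypoxia against 703 and 981 CPM in shNT normoxia. In HIF1A-null and shNT the 2 libraries of a group thus lay farther apart than the hypoxia and normoxia means did. Across the 76 genes the median log2 ratio of second to first library had a Spearman rho of -0.50 with the GC content of the coding sequence, a description over genes measured in the same libraries.

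GC content moved with several comparisons too. Between the 23 genes with 54.5 to 62.6% GC and the 26 genes with 41.7 to 47.7%, the median hypoxia changes were 0.30 and 0.12 in HIF1A-null, 0.11 and -0.21 in shCDK8, 0.40 and 0.28 in shTIP60, and 0.40 and 0.28 in shNT. Against shNT in hypoxia they were 0.23 and -0.05 in HIF1A-null, -0.17 and -0.38 in shCDK8, and -0.06 and -0.38 in shTIP60. The genes that rose in HIF1A-null, shTIP60 and shNT alike were RPS2 (61.7% GC), RPL28 (59.4%), RPL13A (57.5%), RPL3 (54.8%) and RPL17 (45.8%). RPL22, which was lower in 2 lines in hypoxia, has 43.9%, and RPL37 and RPL32, lower in the same 2, have 50.3% and 50.5%. The part of base composition in these results was not tested. Within the first and the second libraries taken alone, the log2 ratio of the summed level in hypoxia to that in normoxia was 0.26 and 0.22 in HIF1A-null, 0.07 and -0.04 in shCDK8, 0.28 and 0.44 in shTIP60, and 0.30 and 0.41 in shNT. Between shCDK8 and shNT it was -0.28 and -0.23 in hypoxia, and -0.05 and 0.22 in normoxia, where the sign differed between the libraries.

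Genes around the ribosome did not all move with the ribosomal protein genes. Of 76 mitochondrial ribosomal protein genes, 27 fell and 1 rose in hypoxia in HIF1A-null, 45 fell and 0 rose in shCDK8, 51 fell and 0 rose in shTIP60, and 54 fell and 1 rose in shNT. Of 27 ribosome biogenesis factors, 13 fell and 2 rose in HIF1A-null, 18 and 0 in shCDK8, 20 and 1 in shTIP60, and 20 and 1 in shNT. Of all genes, 19.1%, 11%, 19.8% and 20% fell and 18.9%, 13.8%, 19.4% and 20.7% rose in the same order of lines. NCL, the nucleolar protein nucleolin, fell by 0.93 ± 0.17 in shNT (adjusted p = 4.24e-04). The medians of the 27 factors were -0.35, -0.57, -0.74 and -0.84 in the same order of lines, where those of the cytoplasmic ribosomal protein genes were 0.18, -0.10, 0.31 and 0.33.

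Of 18 other genes with TOP mRNAs, 8 rose in HIF1A-null, 2 in shCDK8, 7 in shTIP60 and 6 in shNT, and none fell, where 18.9%, 13.8%, 19.4% and 20.7% of all genes rose. EEF2, the translocase of elongation, rose by 0.81 ± 0.13, 0.45 ± 0.13, 0.81 ± 0.13 and 0.82 ± 0.13 in the 4 lines, shCDK8 included. EEF1A1, which delivers aminoacyl-tRNA, rose in shTIP60 by 0.70 ± 0.21 (adjusted p = 0.0162) and in shNT by 0.70 ± 0.21 (adjusted p = 0.0165). Of 13 regulators of ribosomal protein mRNA translation, 2 rose and 3 fell in HIF1A-null, 2 and 2 in shCDK8, 2 and 2 in shTIP60, and 2 and 5 in shNT. Of all genes, 19.1%, 11%, 19.8% and 20% fell in the same order. DDIT4, an inhibitor of mTOR signalling, rose by 4.03 ± 0.22 in HIF1A-null, 4.43 ± 0.22 in shCDK8, 4.48 ± 0.22 in shTIP60 and 5.43 ± 0.24 in shNT. MTOR fell by 1.09 ± 0.17 in shTIP60 and 1.08 ± 0.17 in shNT, and LARP1 was called in no line.

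Of 8 paralogs of ribosomal protein genes, 0 rose and 1 fell in HIF1A-null, 0 and 2 in shCDK8, 1 and 0 in shTIP60, and 2 and 2 in shNT, where 19.1%, 11%, 19.8% and 20% of all genes fell. RPL7L1, a relative of RPL7, fell by 0.80 ± 0.16 in HIF1A-null, 0.66 ± 0.16 in shCDK8 and 0.46 ± 0.16 in shNT. RPL22L1, the paralog of RPL22, fell by 0.61 ± 0.18 in shCDK8 (adjusted p = 0.0223). Of the ribosomal genes outside the rule, GNB2L1, which encodes the scaffold RACK1, rose by 0.38 ± 0.14 in shNT (adjusted p = 0.0396), and FAU was called in no line. Of 26 tested ribosomal protein pseudogenes, 2 rose in HIF1A-null, 1 in shCDK8, 6 in shTIP60 and 7 in shNT, and none fell. Of all genes, 18.9%, 13.8%, 19.4% and 20.7% rose in the same order of lines. The pseudogenes took 0.0548 to 0.0780% of all counts, and the part of reads shared with them in the changes above was not tested.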

How the data were processed

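The deposited file held raw read counts per gene symbol for 16 libraries, to which the authors had applied no scaling as far as the labels say. GSNAP (2013-10-28) and HTSeq (0.5.4p5) stand in the submitters' processing notes, beside R (3.0.3) with DESeq (1.14.0) and the build hg19. The annotation, strand setting and handling of reads with several matches are not given in the sources used here. Per the labels' protocols, libraries came from an Ion Torrent total RNA kit with a final size selection of 120 to 200 bp. Column names matched groups but no replicate number, so libraries are called first and second by the numbers in the names.

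The tests used the quasi-likelihood fit of edgeR 4.0.16 under R 4.3.3 (filter of at least 10 counts by group and 15 in total, TMM factors, 1 coefficient per group, robust quasi-likelihood, 8 residual degrees of freedom, biological coefficient of variation 0.132), two-sided, in 13 comparisons. Replicate libraries differed by 8.90 to 68.3 times the counting variance, and p-values measure the spread between these libraries only. On simulated data for hypoxia in shNT (15173 genes), 1.49% of genes simulated at 1.3-fold, 37.3% at 1.5-fold and 90.9% at 2-fold were called, with 5 of 91 calls false. For the difference between HIF1A-null and shNT the shares at the same folds were 0%, 5.97% and 48.5%, and 1 of 37 calls was false. The simulation changed 200 genes above a minimum level, in shNT hypoxia only, with each gene drawn independently. Deviations of the ribosomal protein genes were correlated and many more genes were called in the data, so these rates need not carry over to the family. Coding lengths, GC content and pseudogenes came from GENCODE release 44 on GRCh37, and start sites from RefSeq.

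Alternatives were DESeq2 1.42.0, relative log expression (RLE) factors, library totals, TMM factors without the ribosomal protein genes, no filter, a fit of the compared groups only, the library number as a block, and each library left out. The gene set, the lists and the rule for naming were chosen with earlier results of these data known. Genes named with values were up to 5 called in each direction per comparison with the smallest adjusted p, the 3 highest and 3 lowest levels, fixed role groups, and untested genes. RPL13A, RPS10, RPS26, RPS24, RPS29, RPL31, RPL12, RPS13, RPS19 and genes of other lists were named after their values were seen. Some genes that these rules name are not reported here.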

Additional observations from a re-analysis of the deposited data

How the results depend on the processing

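Counts of ribosomal protein genes called are given by comparison. With library totals 0 were called for hypoxia in HIF1A-null, 4 in shCDK8, 1 in shTIP60 and 4 in shNT, 1 for HIF1A-null against shNT in normoxia and 2 in hypoxia, and 1 for the difference of HIF1A-null. With RLE factors 1 was called for shCDK8 against shNT in normoxia. Without a filter the counts were 4 for hypoxia in shCDK8 and 26 in shTIP60, 12, 2 and 7 against shNT in normoxia and 9, 19 and 12 in hypoxia for HIF1A-null, shCDK8 and shTIP60, and 1 each for the differences of HIF1A-null and shCDK8. DESeq2 called 1 for hypoxia in shCDK8 and 26 in shTIP60, 11, 2 and 3 against shNT in normoxia and 8, 17 and 8 in hypoxia in the same order of lines, and 1 for the difference of HIF1A-null. A fit of only the groups compared called 1 for hypoxia in HIF1A-null, 55 in shTIP60 and 16 in shNT, 0 and 19 for HIF1A-null and shTIP60 against shNT in normoxia, and 0 for HIF1A-null in hypoxia. Leaving out each library gave 3 to 5 for hypoxia in HIF1A-null, 0 to 4 in shCDK8, 2 to 9 in shTIP60 and 8 to 26 in shNT. It gave 0 to 4, 0 to 4 and 0 against shNT in normoxia, 0 to 5, 1 to 15 and 0 to 10 in hypoxia, and 0 to 1, 0 and 0 for the differences, for HIF1A-null, shCDK8 and shTIP60. Scaled with TMM factors, the family's mean share was 8.27% in HIF1A-null hypoxia, 5.37% in shTIP60 normoxia and 5.93% in shNT normoxia. No change of a named gene reversed, and TMM factors without the family ended none of 39 named calls, while library totals ended 23. The cause was not tested.

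With the replicate block (first and second libraries as a term), 17, 4 and 40 genes were called for hypoxia in HIF1A-null, shCDK8 and shTIP60, 16, 2 and 12 for HIF1A-null, shCDK8 and shTIP60 against shNT in normoxia and 12, 30 and 16 in hypoxia, and 1 and 2 for the differences of HIF1A-null and shCDK8. Deviations of same-numbered libraries from their group means correlated across all genes at 0.0307 to 0.336 between groups, every value above 0. No label says that the numbers pair the samples, so the fit with groups only was kept as the main fit. Across the ribosomal protein genes alone the range was 0.141 to 0.768. The fit without the block therefore leaves a difference shared by same-numbered libraries in the spread within groups.

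With 2 libraries per group, a gene that was not called is not shown to be equal between groups. Genes with many copies, such as RPL21, had few counts.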
